A study of Mus musculus with 30 samples.

Results

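The genes described here encode the proteases that release the intracellular part of Notch and the nuclear complex in which it acts: the gamma-secretase subunits Psen2, Ncstn, Aph1a and Psenen, the surface proteases Adam10 and Adam17, the DNA-binding factor Rbpj, the coactivator Maml1, and the Notch inhibitor Numb. They were chosen by name, 9 genes of the 15967 named on the array, and every probe that the platform annotation assigns to them was taken, 17 of 24611. Of these probes 14 passed the filter on low values, which left 8 genes with a test. The 9th, Adam10, had 1 probe, and its signal lay below background in all 28 samples.

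Gene expression had been measured in Ainv15 cells, a single male mouse embryonic stem (ES) cell line, of blastocyst stage by the labels and used to express a transgene under doxycycline control. There were 7 groups of 4 samples, each culture lasting 6 h. ESC samples stayed in ES cell medium with serum, serum replacement and LIF. The N2B27 samples were in serum-free N2B27 medium, the control for the remaining groups. Dox samples were in N2B27 with doxycycline at 2 ug/ml, and DAPT samples received DAPT, which inhibits gamma-secretase, in N2B27 at 2.5 ng/ml (the labels' unit), after 4 h of the inhibitor in ES cell medium. The 1% O2, 1% O2+Dox and 1% O2+DAPT samples had the same N2B27 treatments under 1% oxygen. The oxygen level of the other 4 groups is not in the labels. From what is known of the study, the transgene turned on by doxycycline is the Notch1 intracellular domain. The labels do not name the transgene, and every doxycycline sample carried it, so an effect of the drug cannot be told apart from one of the transgene. The pretreatment is a further difference between the DAPT groups and their controls.

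Notch is a surface receptor. After a ligand binds, an ADAM protease cuts the receptor outside the membrane, and gamma-secretase then cuts it within the membrane and frees the intracellular domain. Presenilin (here Psen2) holds the catalytic site of gamma-secretase, nicastrin (Ncstn) is its large glycoprotein subunit, Aph1a is a scaffold, and Psenen (PEN-2) is needed for presenilin to mature. In the nucleus the freed domain binds RBPJ, and a Mastermind protein such as MAML1 joins them and recruits histone acetyltransferases. Numb is an endocytic adaptor that lowers Notch at the membrane. ES cells carry this machinery while self-renewing, and Notch signaling is known to favour their neural differentiation.

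Levels are log2 of quantile-normalized signal, given as mean ± SD over the 4 samples of a group, and levels of different probes were not compared with each other. A gene was called changed where limma's Benjamini-Hochberg adjusted p over the 9809 genes tested was under 0.05. Changes are log2 fold changes ± SE of that model, all tests being two-sided. Samples with the same replicate number deviated together, and replicates 1 and 2 stood apart from 3 and 4 along the first principal component, with 51.5% of the variance. The same fit with the replicate number as a block is therefore given where it changes a call. The mean signal per array ran from 645 to 862. All 7 ES cell markers on the array, among them Pou5f1 and Nanog, were above background in 28 of 28 samples, with a summed signal of 25026 to 34750. Doxycycline raised the Notch targets Nrarp by 3.45 ± 0.29 and Hes5 by 2.93 ± 0.23 on the log2 scale, and 1% oxygen raised the HIF target Egln3 by 3.90 ± 0.23. With DAPT 0 of the 4 Notch targets Nrarp, Hes5, Hey1 and Hes1 were called in any comparison with its control, with or without the block, and their pooled median change was -0.14.

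The members differed in how well the array detected them. Psen2, Psenen, Adam17, Maml1, Ncstn probe 1 and Aph1a probes 1 and 2 were above background in 28 of 28 samples. Rbpj probes 1, 2 and 3 were above it in 16, 13 and 7 samples, and Numb probe 1, which represents that gene in the test, in 7. Numb probe 2 reached it in 1 sample and Numb probe 3 in none. Ncstn probe 2 was above background in 5 samples, Aph1a probe 3 in 12 and Aph1a probe 4 in none. For Rbpj and Numb most differences below are therefore between signals near background, and a change of the transcript could be understated. The single Adam10 probe gave signals from -36.9 to -12.8 after the background had been subtracted. No level can be given for this gene, whose product is the main protease of ligand-dependent Notch cleavage.

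**Figure D1:**
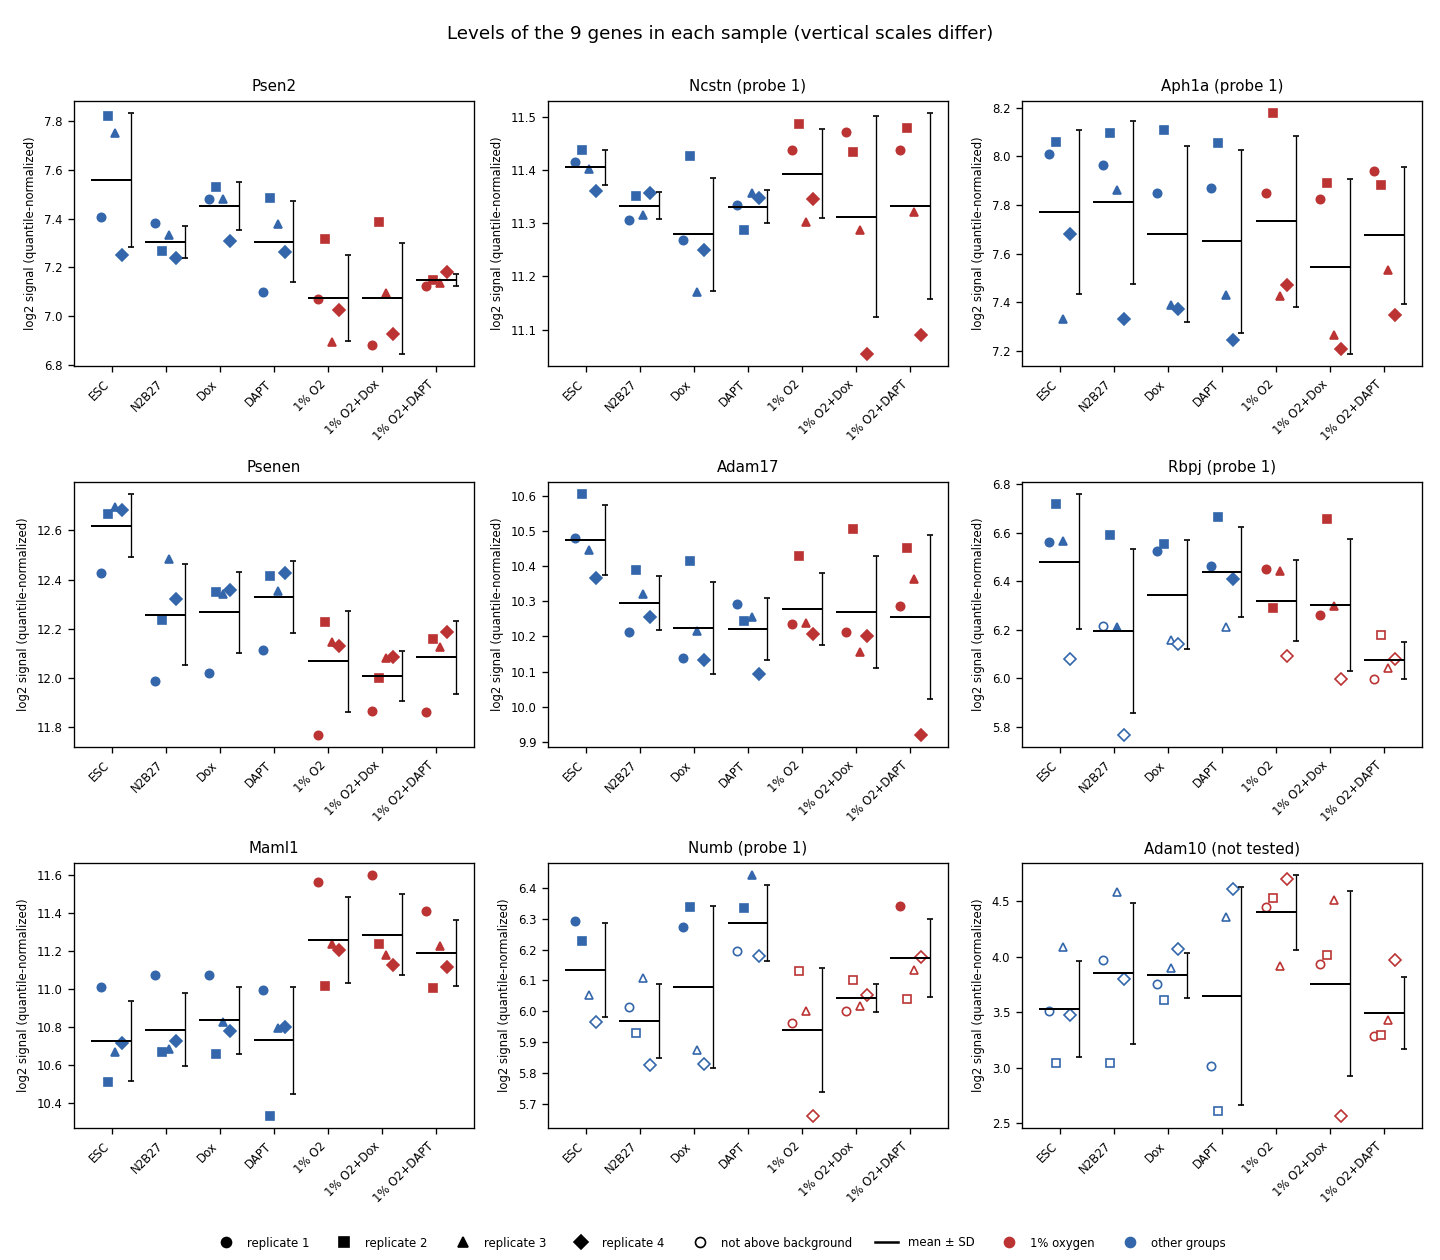
Log2 quantile-normalized signal of the 9 genes (vertical axes, 1 panel a gene, scales differ) in the 7 groups, with a symbol for each replicate number, bars for the group mean ± SD, and open symbols where the signal was not above background. The Maml1 means of the 3 groups under 1% oxygen (11.19 to 11.29) lie above those of the other 4 groups (10.73 to 10.83), while Psenen is highest in ESC and lowest under 1% oxygen.

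Among the representative probes of the 8 tested members the largest oxygen difference was that of Maml1, the coactivator of the nuclear complex. It rose under 1% oxygen by 0.46 ± 0.09 (1.38-fold, 95% confidence interval 0.28 to 0.64 on the log2 scale, adjusted p = 0.000374, 12 samples against 12), while the gamma-secretase subunits Psen2 and Psenen fell. Ncstn, Adam17, Rbpj, Numb and the representative probe of Aph1a were not called. In this comparison, pooled over N2B27, Dox and DAPT, 3 of the 8 tested members were called, against 17.6% of all genes tested. The 1 higher member stands beside 7.76% of all genes called higher, and the 2 lower members beside 9.83% called lower. The members' median change was -0.06 and that of all genes -0.02. With the replicate block the same 3 of 8 were called, beside 41.5% of all genes, so under that fit a share of this size was close to the background.

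Maml1 read 11.07, 10.67, 10.68 and 10.72 in N2B27 replicates 1 to 4 and 11.56, 11.02, 11.24 and 11.20 in the 1% O2 samples of the same numbers. In Dox it read 11.08, 10.66, 10.83 and 10.78, and in 1% O2+Dox 11.60, 11.24, 11.18 and 11.13. The DAPT samples read 10.995, 10.33, 10.79 and 10.80 and the 1% O2+DAPT samples 11.41, 11.003, 11.23 and 11.12. Replicate 1 was the highest sample in each of the 7 groups. Within a replicate number Maml1 was higher under 1% oxygen in 12 of 12 pairs, by 0.32 to 0.67. Groups did not overlap for Dox or, by a gap under 0.01, for DAPT, whereas N2B27 replicate 1 lay above the lowest 1% O2 sample. The ESC samples, at 11.01, 10.51, 10.67 and 10.71, lay among those of the other groups not under 1% oxygen.

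The Maml1 change had nearly the same size in each of the 3 separate comparisons, which share no samples: 0.47 ± 0.15 in N2B27, 0.45 ± 0.15 with Dox and 0.46 ± 0.15 with DAPT. None of the 3 passed the threshold in the fit without a block, with adjusted p of 0.0823, 0.101 and 0.0923. With the replicate block the adjusted p were 1.36e-05, 2.39e-05 and 1.73e-05. At the level of single comparisons 0 of 8 members were called without the block, beside 4.12%, 4.07% and 4.04% of all genes in N2B27, Dox and DAPT. Their unadjusted p was under 0.05 for 1, 3 and 3 members. With the block 2, 3 and 3 of 8 were called, beside 20.0%, 19.5% and 21% of all genes. By group mean, the 3 groups under 1% oxygen had the highest Maml1 levels, 11.29 ± 0.21 in 1% O2+Dox, 11.26 ± 0.23 in 1% O2 and 11.19 ± 0.17 in 1% O2+DAPT, and did not differ from each other beyond their SD. The gap from there to Dox, 10.83 ± 0.18, was wider than the SD of either group. Dox, N2B27 (10.79 ± 0.19), DAPT (10.73 ± 0.28) and ESC (10.73 ± 0.21) did not differ beyond their SD.

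With each probe tested on its own, the pooled Maml1 change was 0.51 within replicates 1 and 2 alone (adjusted p = 0.0645 by limma) and 0.41 within replicates 3 and 4 alone (adjusted p = 0.000681). The direction was thus the same in both sets, and the call held in the second set only. Leaving out each of the 24 samples in turn gave 0.42 to 0.49 and kept the call in 24 of 24 fits.

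**Figure D2:**
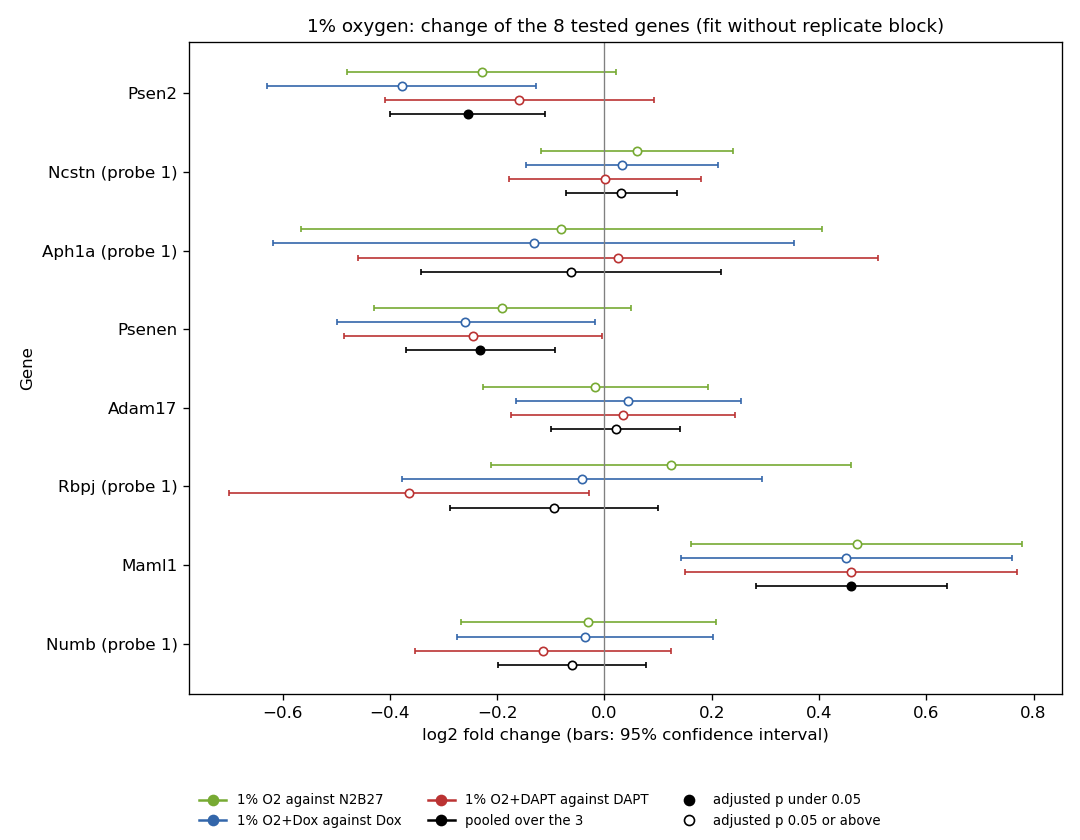
Log2 fold change under 1% oxygen (horizontal axis, bars for the 95% confidence interval) of the 8 tested genes, for each of the 3 separate comparisons and pooled over them, from the fit without a replicate block. Filled points mark an adjusted p under 0.05, which the pooled values of Maml1 (0.46), Psen2 (-0.26) and Psenen (-0.23) reached.

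Psenen, the smallest gamma-secretase subunit, fell under 1% oxygen by 0.23 on the log2 scale (± 0.07, adjusted p = 0.0168, pooled). It read 11.99, 12.24, 12.48 and 12.32 in N2B27 and 11.77, 12.23, 12.15 and 12.13 in 1% O2. With Dox the 4 samples read 12.02, 12.35, 12.34 and 12.36, against 11.87, 11.999, 12.08 and 12.09 in 1% O2+Dox. With DAPT they read 12.12, 12.42, 12.36 and 12.43, against 11.86, 12.16, 12.13 and 12.19. In each group replicate 1 was the lowest sample, and the groups compared overlapped. Within a replicate number Psenen was lower under 1% oxygen in 12 of 12 pairs, by as little as 0.01 (replicate 2 in N2B27) and as much as 0.35. The separate changes were -0.19 ± 0.12, -0.26 ± 0.12 and -0.25 ± 0.12 in N2B27, Dox and DAPT. Their adjusted p were 0.565, 0.304 and 0.333 without the block and 0.0126, 0.00107 and 0.00171 with it. Without replicates 3 and 4 the pooled change was -0.21 (adjusted p = 0.244 in the same fit of each probe), and without replicates 1 and 2 it was -0.26 (adjusted p = 0.0162). On the authors' processed values the pooled change was -0.21 with an adjusted p of 0.0555, which ends the call.

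Psen2, a catalytic subunit, fell under 1% oxygen by 0.26 on the log2 scale (± 0.07, adjusted p = 0.0112, pooled). In N2B27 it read 7.38, 7.27, 7.33 and 7.24, and in 1% O2 7.07, 7.32, 6.89 and 7.02. In Dox it read 7.48, 7.53, 7.48 and 7.31, and in 1% O2+Dox 6.88, 7.39, 7.10 and 6.93. The DAPT samples read 7.10, 7.48, 7.38 and 7.26, and the 1% O2+DAPT samples 7.12, 7.15, 7.14 and 7.18. The groups overlapped in each comparison, and Psen2 was lower under 1% oxygen in 10 of 12 pairs of equal number. Replicate 2 in N2B27 (higher by 0.05) and replicate 1 with DAPT (higher by 0.03) were the exceptions. The separate changes were -0.23 ± 0.12 in N2B27, -0.38 ± 0.12 with Dox and -0.16 ± 0.12 with DAPT. Without the block none was called (adjusted p = 0.429, 0.0855 and 0.695), and with it the change under Dox was (adjusted p = 0.00556), while those in N2B27 (0.0900) and DAPT (0.251) were not. Whether the change differed with Dox was tested by the interaction of Dox and oxygen, where 0 of 8 members were called, beside 0.0102% of all genes. Within replicates 1 and 2 the pooled Psen2 change was -0.22 (adjusted p = 0.222 in that fit), and within 3 and 4 it was -0.29 (adjusted p = 0.0699).

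**Figure D3:**
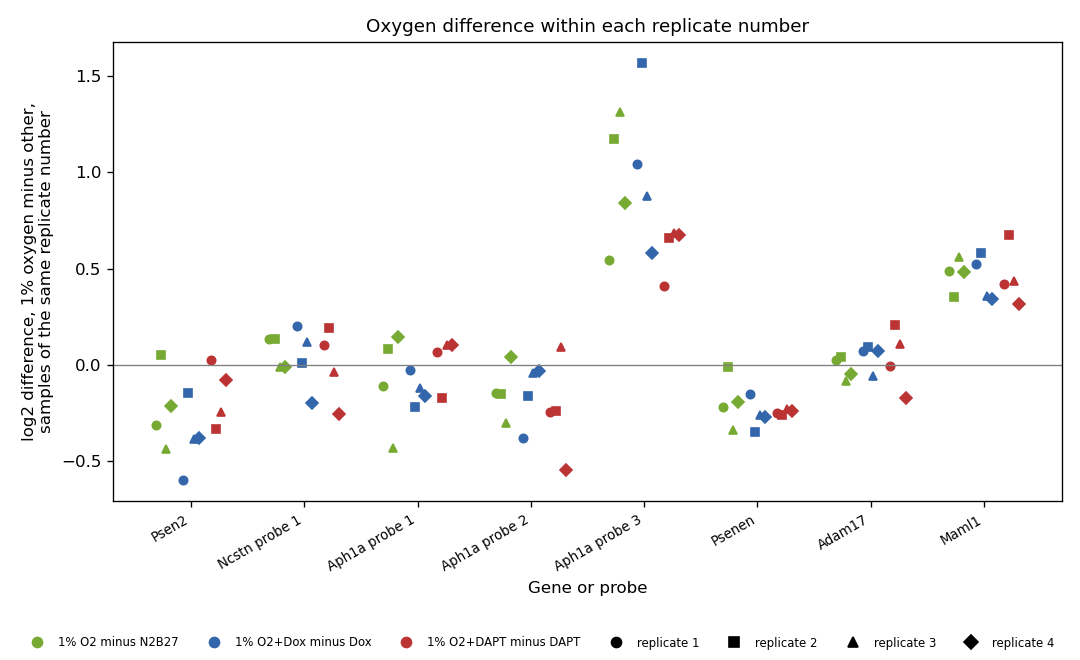
Log2 difference between the 1% oxygen sample and the other sample of the same replicate number (vertical axis) for the 7 probes above background in all samples and Aph1a probe 3 (horizontal axis), coloured by comparison, with a symbol for each replicate number. All 12 Maml1 differences and all 12 of Aph1a probe 3 are above 0, all 12 of Psenen are below 0, and those of Ncstn probe 1 and Adam17 lie on both sides.

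The other 2 gamma-secretase subunits gave no called change on their representative probes. Ncstn probe 1 had group means from 11.28 ± 0.11 (Dox) to 11.41 ± 0.03 (ESC), no neighbours in that order differing beyond their SD, and its pooled oxygen change was 0.03 ± 0.05 with a 95% confidence interval of -0.07 to 0.14. Aph1a probe 1 ranged over 7.21 to 8.18 and changed by -0.06 ± 0.14 under 1% oxygen (95% confidence interval -0.34 to 0.22). Its widest difference was between the sets of replicates: the mean was 7.97 over replicates 1 and 2 and 7.42 over 3 and 4.

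Aph1a had 4 probes, whose values under 1% oxygen differed in direction. Probe 3 passed the filter on low values only through the 1% oxygen groups: it exceeded the array median in 11 of 12 samples there and in 2 of the other 16, under the 4 needed. A probe kept in this way had to differ with oxygen, so its values are a description and its p-values no support. Fitted as a probe of its own among 12259, it was higher under 1% oxygen by 0.97 ± 0.19 against N2B27 (adjusted p = 0.00263) and by 1.02 ± 0.19 with Dox (adjusted p = 0.00165). With DAPT the difference was 0.61 ± 0.19 (adjusted p = 0.0922, and 0.00423 with the replicate block), and pooled it was 0.86 ± 0.11 (adjusted p = 2.98e-06). The probes called in these 4 comparisons were 3.34%, 3.26%, 3.18% and 15.1% of all tested. The probe was not well above background in any N2B27 or Dox sample and was so in 1 of 4 DAPT samples, so no size of the difference is exact, the pooled one included. For the first a bound can be given, as 4 of 4 samples in 1% O2 were above background: probe 3 was at least 1.39-fold higher there than in N2B27. The mean of 1% O2+Dox was 1.10-fold the background limit in Dox. It includes a sample not above background (3 of 4 were), so that ratio is no lower bound.

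The 4 N2B27 samples of Aph1a probe 3 read 6.09, 5.64, 5.56 and 5.60, and the 1% O2 samples 6.64, 6.81, 6.87 and 6.44. In Dox it read 5.66, 5.04, 5.44 and 5.27, and in 1% O2+Dox 6.70, 6.61, 6.32 and 5.86. Neither pair of groups overlapped, and 4 of 4 samples in 1% O2 and 3 of 4 in 1% O2+Dox were above background. The DAPT samples read 6.30, 6.18, 5.73 and 5.62, with 1 of 4 above background, and the 1% O2+DAPT samples 6.70, 6.84, 6.41 and 6.29, all 4 above, the groups overlapping at 6.29 to 6.30. Within a replicate number the probe was higher under 1% oxygen in 12 of 12 pairs. The size depends on how background was treated: the pooled change was 0.50 with a normexp offset of 50, 2.60 with signals under 1 set to 1, and 0.36 on the authors' processed values, with an adjusted p of 0.00803 pooled and of 0.115 and 0.638 in N2B27 and Dox. Leaving out any 1 sample gave 0.83 to 0.92 pooled. Within replicates 1 and 2 the pooled change was 0.90, and within 3 and 4 it was 0.83. The pairs and these repeats use the values that let the probe through the filter. They describe the probe and, like its p-values, are no support.

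Aph1a probe 2, above background in every sample, had the opposite sign: its pooled change was -0.18 ± 0.07, not called without the block (adjusted p = 0.0995) and called with it (adjusted p = 0.0209). It was lower under 1% oxygen in 10 of 12 pairs. Probe 4 was not above background in any sample. All 4 probes are assigned to 1 RefSeq transcript record by the annotation, and where on the transcript each lies was not analysed here. The difference between probes itself was not tested, so these data give no single direction for Aph1a under 1% oxygen.

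**Figure D4:**
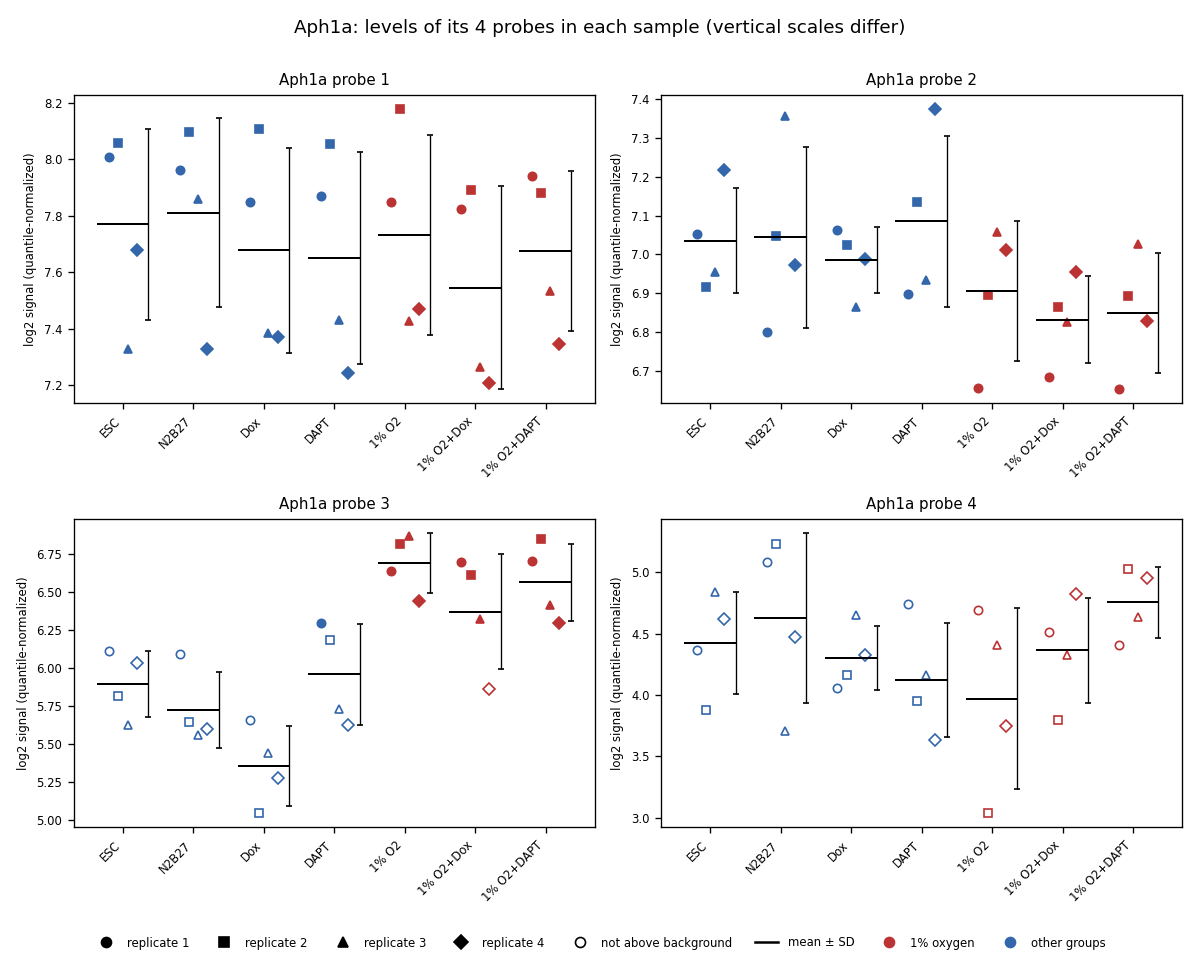
Log2 quantile-normalized signal (vertical axes, scales differ) of the 4 Aph1a probes in the 7 groups, with a symbol for each replicate number, bars for mean ± SD and open symbols where the signal was not above background. Probe 3 is above background in 11 of 12 samples under 1% oxygen and in 1 of the 12 N2B27, Dox and DAPT samples, while probes 1 and 2 show no rise.

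Adam17, a protease that sheds many surface proteins and can cut Notch, stayed within a narrow range of 9.92 to 10.60. Its pooled oxygen change was 0.02 ± 0.06 (95% confidence interval -0.10 to 0.14), higher in 7 of 12 pairs and lower in 5. The 4 samples in 1% O2+DAPT were the most spread, 10.26 ± 0.23, replicate 4 being the lowest Adam17 value of all.

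Rbpj, which binds DNA and holds the nuclear complex on its targets, was near background on all 3 probes. Its representative probe 1 was not called under 1% oxygen pooled (-0.09 ± 0.09). With DAPT it read 6.46, 6.67, 6.21 and 6.41 in replicates 1 to 4 without and 5.996, 6.18, 6.04 and 6.08 with 1% oxygen, where no sample was above background. The groups did not overlap. The change, -0.36 ± 0.16, was not called without the block (adjusted p = 0.285) and was called with it (adjusted p = 0.0169). The DAPT mean was 1.17-fold the background limit in 1% O2+DAPT. Only 3 of 4 DAPT samples were above background, so that ratio is no lower bound. Probes 2 and 3 changed by -0.11 ± 0.18 and 0.04 ± 0.24 in the same comparison and were not called. The interaction of DAPT and oxygen was -0.49 ± 0.23 for probe 1 and was not called. In that interaction 0 of 8 members were called, beside 0% of all genes and, by unadjusted p under 0.05, 58 genes including 1 member.

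Numb probe 1 had group means from 5.94 to 6.29. Under 1% oxygen its pooled change was -0.06 ± 0.07. In DAPT it read 6.20, 6.33, 6.44 and 6.18, against 6.01, 5.93, 6.11 and 5.83 in N2B27. Those groups did not overlap, no N2B27 sample and 2 of the 4 DAPT samples being above background. The difference of 0.32 ± 0.12 had an adjusted p of 1 (unadjusted 0.0112) and was not called. The mean of these DAPT samples was 1.05-fold the background limit in N2B27. Pooled over oxygen, no control sample and 3 of 8 DAPT samples were above background, and that ratio was 1.01-fold. Neither ratio is a lower bound, because both DAPT means include samples not above background. The pooled fitted difference was 0.28 ± 0.08 (adjusted p = 1.00, unadjusted 0.00257, and an adjusted p of 0.247 with the replicate block). Numb probe 2 was lower in DAPT (mean 5.59) than in N2B27 (5.89), and probe 3 higher (5.94 and 5.855), with no sample above background. These values near background establish no rise.

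No change of the 8 tested members was called with doxycycline or DAPT. With Dox 0 of 8 were called against N2B27, under 1% oxygen and pooled, beside 0.336%, 0.194% and 0.622% of all genes, and 0 members had an unadjusted p under 0.05 in any of the 3. Pooled with the replicate block the share was 3.63% of all genes and 0 of 8 members. With DAPT 0 of 8 were called in the same 3 comparisons, beside 0%, 0% and 0% of all genes, and 0 of 8 pooled with the block, beside 0.0102%. By unadjusted p under 0.05, Numb was the 1 member in N2B27 and pooled without the block. With the block, members under that unadjusted p numbered 0, 1 and 1 for Dox against N2B27, under 1% oxygen and pooled, and 2, 2 and 1 for DAPT. In the pooled comparisons the 95% confidence intervals of the 8 members lay within -0.50 to 0.30 for Dox and -0.45 to 0.44 for DAPT on the log2 scale. For Maml1 they ran from -0.18 to 0.26 with Dox and from -0.28 to 0.16 with DAPT, and for Psenen from -0.20 to 0.15 and from -0.13 to 0.21. The Dox and DAPT comparisons share their control samples.

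**Figure D5:**
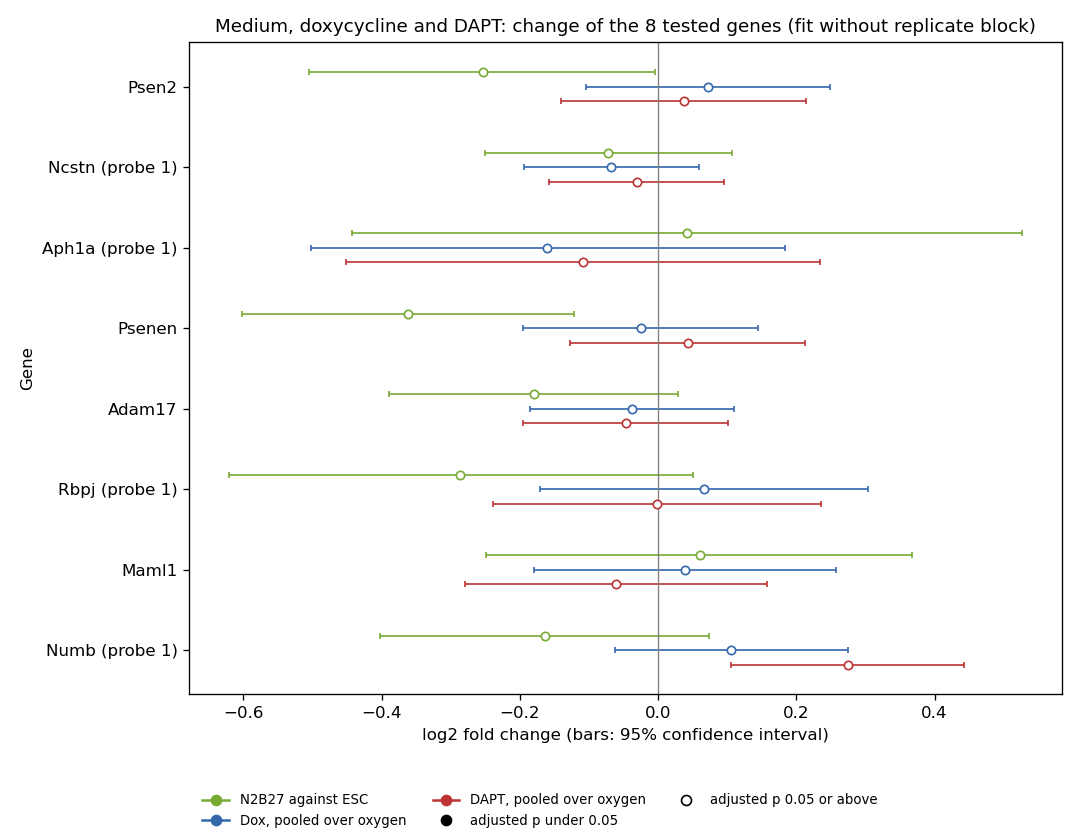
Log2 fold change (horizontal axis, bars for the 95% confidence interval) of the 8 tested genes for N2B27 against ESC and for Dox and DAPT pooled over both oxygen levels, from the fit without a replicate block. No point is filled, as none had an adjusted p under 0.05; the lowest value is that of Psenen in N2B27 against ESC (-0.36).

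The change from ES cell medium to N2B27 gave 0 of 8 called members without the block, beside 1.94% of all genes, with an unadjusted p under 0.05 for 2. With the block 1 of 8 was called, beside 16.1%. That member was Psenen, which read 12.43, 12.67, 12.70 and 12.69 in ESC and was lower in N2B27 in 4 of 4 pairs. The difference was -0.36 ± 0.12, with an adjusted p of 0.136 without and 3.73e-05 with the block. The ESC mean, 12.62 ± 0.13, was the highest of the 7 groups by more than the SD of its neighbour, and Psenen replicate 1 was again the lowest sample. Psen2 (-0.25 ± 0.12) and Rbpj probe 1 (-0.29 ± 0.16) were lower in N2B27 in 4 of 4 pairs. So were Adam17 (-0.18 ± 0.10) and Ncstn probe 1 (-0.07 ± 0.09). None of these was called under either fit. The Rbpj probes, all near background, differed in direction. Probe 2 had a mean of 6.31 in N2B27 and 6.23 in ESC, and probe 3 of 6.03 and 6.16. How many of all genes were lower in 4 of 4 pairs was not counted. For Ncstn probe 1 the 2 groups did not overlap, but only narrowly: the lowest ESC sample read 11.361 and the highest N2B27 sample 11.356.

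Since the oxygen differences described were those of Maml1, Psen2, Psenen and a probe of Aph1a, the 250 bases before the start of each gene are shown, from RefSeq on GRCm38.p6. The entry farthest upstream is printed for Psen2 and Psenen, which have 2 each. The probes were not placed on this build. Capitals mark ACGTG or GCGTG, the core of a HIF site, and TGGGAA, the core of an RBPJ site, each searched on both strands.
Maml1, chr11:50292337-50292586, minus strand: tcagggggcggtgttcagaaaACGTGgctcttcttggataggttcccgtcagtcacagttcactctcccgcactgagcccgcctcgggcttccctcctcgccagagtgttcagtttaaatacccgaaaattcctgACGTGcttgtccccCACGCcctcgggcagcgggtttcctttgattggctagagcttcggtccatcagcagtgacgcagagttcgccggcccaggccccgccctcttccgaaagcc
Psen2, chr1:180256301-180256550, minus strand: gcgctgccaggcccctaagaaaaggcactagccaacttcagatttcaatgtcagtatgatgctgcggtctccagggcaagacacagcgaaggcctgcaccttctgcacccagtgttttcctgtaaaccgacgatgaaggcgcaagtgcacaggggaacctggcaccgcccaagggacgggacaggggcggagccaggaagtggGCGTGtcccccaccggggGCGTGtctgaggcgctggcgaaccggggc
Psenen, chr7:30563628-30563877, minus strand: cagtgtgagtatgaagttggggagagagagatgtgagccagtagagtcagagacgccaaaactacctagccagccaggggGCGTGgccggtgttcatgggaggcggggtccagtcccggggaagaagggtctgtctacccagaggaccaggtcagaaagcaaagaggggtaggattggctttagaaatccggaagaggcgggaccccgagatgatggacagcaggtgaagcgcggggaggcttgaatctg
Aph1a, chr3:95893671-95893920, plus strand: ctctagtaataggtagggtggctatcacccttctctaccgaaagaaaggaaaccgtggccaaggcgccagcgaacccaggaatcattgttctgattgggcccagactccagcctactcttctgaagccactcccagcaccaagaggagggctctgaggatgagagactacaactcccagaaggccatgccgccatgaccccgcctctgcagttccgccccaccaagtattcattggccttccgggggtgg
The window of Maml1, which rose, holds 3 HIF cores. The printed windows of Psen2 and Psenen, which fell, hold 2 and 1, and that of Aph1a holds none. None of these 4 windows holds the RBPJ core. The second entries of Psen2 and Psenen, not printed, hold the HIF core at 1 and 2 places, matches that overlap counted as 1, and the RBPJ core at 1 place each. The HIF core also stands before members without a called oxygen change, whose windows are not printed. Ncstn and Adam17 hold it at 1 place each, and Adam10, which was not tested, at 2. Entries 1 and 2 of Rbpj hold it at 0 and 1 places, and entries 1, 2 and 3 of Numb at 0, 1 and 0. Of 32851 windows of this length in the table, 38.6% hold a HIF core and 21.6% the RBPJ core. The matches describe the letters only.

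Other genes of the pathway were counted from lists of named genes, in the pooled oxygen comparison. Each count is to be read against 17.6% of all genes called without the block and 41.5% with it. Of the 5 tested partners of gamma-secretase 1 rose and 0 fell (20% against 17.6% of all genes; 2 rose with the block). The riser was Bsg, a glycoprotein that copurifies with the enzyme, at 0.54 ± 0.12. Of 16 sheddases and regulators of the ADAM proteases 2 rose and 1 fell (18.8%). Adam19 rose by 0.24 ± 0.07 and Bace1, the beta-secretase, by 0.22 ± 0.05, while Tspan14, a tetraspanin that carries ADAM10 to the surface, fell by 0.21 on the log2 scale (± 0.05). With the block 3 of the 16 rose and 5 fell (50%, near the 41.5% of all genes).

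Of 18 RBPJ coactivators and corepressors 1 rose and 1 fell (11.1%): Kdm1a, a histone demethylase, at 0.24 ± 0.07, and Rita1, which exports RBPJ from the nucleus, at -0.30 ± 0.05. With the block 5 rose and 4 fell (50%). Among 18 Numb partners and Notch trafficking genes 3 rose and 2 fell (27.8%), and 7 rose and 4 fell with the block (61.1%, beside 41.5% of all genes). The risers were the ubiquitin ligase genes Dtx1 (0.58 ± 0.09), Dtx3l (0.23 ± 0.07) and Nedd4l (0.22 ± 0.07), and those that fell were Lnx2 (-0.29 ± 0.05), whose relative Lnx1 acts on Numb, and Sap30bp (-0.21 ± 0.05). Sap30bp was counted because the list held it, and its link to Numb or to Notch trafficking was not examined.

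Of 5 enzymes that glycosylate Notch 0 rose and 3 fell (60%), and 4 fell with the block (80%). These were Mfng (-0.62 ± 0.21) and Pofut1 (-0.29 ± 0.09), which add or extend O-fucose on the receptor, and Xxylt1 (-0.18 ± 0.04), which extends O-glucose glycans. Of 16 receptors and ligands cut by these proteases 3 rose and 2 fell (31.2%), and 6 rose and 2 fell with the block (50%, beside 41.5% of all genes). Lrp1 rose by 0.57 ± 0.16, Notch4 by 0.48 ± 0.14 and Dll1 by 0.20 ± 0.07, whereas Notch1 fell by 0.49 on the log2 scale (± 0.08) and Aplp1 by 0.41 (± 0.10). The medians of the 6 lists ran from -0.18 to 0.10, beside -0.02 for all genes.

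Outside the oxygen comparison few genes of these lists were called without the block. Pooled Dox raised Notch1 by 0.69 ± 0.10, a gene whose probe may also detect the transgene, and Dtx1 by 0.55 ± 0.11, and lowered Dll1 (-0.38 ± 0.08). These stand beside 0.622% of all genes. With the block, pooled Dox raised 4 and lowered 1 of the 16 receptors and ligands (31.2%, beside 3.63% of all genes). It raised 1 and lowered 1 of the 18 Numb partners and trafficking genes (11.1%), with no call in the other lists. In N2B27 against ESC Rhbdf1, an inactive rhomboid that carries ADAM17 to the surface, fell by 0.89 on the log2 scale (± 0.22). DAPT pooled called none of the 78 tested genes of the lists. With the replicate block 1 of the 16 sheddases and ADAM regulators rose and 8 fell in N2B27 against ESC (56.2%), and 3 of the 5 glycosylation enzymes fell (60%). All genes called in that fit were 16.1%. The other lists were nearer that share: gamma-secretase partners 20%, receptors and ligands 12.5%, RBPJ coactivators and corepressors 11.1%, and Numb partners and trafficking genes 11.1%.

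Some markers of other cell types were called in the pooled oxygen comparison, where 17.6% of all genes were called without the block and 41.5% with it. Whether markers were called more often than other genes was not tested. Of 4 mesoderm markers on the array 1 (Eomes) was above background in all 28 samples and 3 in none, of 5 endoderm markers 3 in all and 2 in none, of 6 neural markers 1 in all and 3 in none, of 8 fibroblast markers 2 in all and 2 in none, and of 4 trophectoderm markers 2 in all and 2 in none. Mixl1, Kdr, Mesp1, Afp, Foxa2, Pax6 and Sox1 were among those above it in none. In the pooled oxygen comparison Eomes (mesoderm, 0.89 ± 0.15), Gata6 (0.51 ± 0.12) and Sox17 (0.36 ± 0.10) of the endoderm rose and Thy1 of the fibroblasts (-0.49 ± 0.16) fell, while 0 of 7 ES cell markers were called (3 rose and 1 fell with the block). The summed mesoderm signal was 86 to 309 in N2B27, Dox and DAPT samples and 157 to 656 under 1% oxygen, and the summed endoderm signal 658 to 1107 and 689 to 1527. The summed fibroblast signal was 462 to 1060 and 286 to 944, the neural 148 to 394 and 152 to 338, and the trophectoderm 385 to 1080 and 343 to 1250. Their part in the changes of Maml1, Psen2 and Psenen was not tested. In these bulk samples fewer cells of a type and less RNA per cell cannot be told apart.

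Over the 28 samples, with each gene centred on its replicate number, the levels most like those of Maml1 were Ddah2 (Pearson's r = 0.961), Arhgap29 (0.959) and Prmt8 (0.954). Those most like Psenen were B4galt6 (0.951), Car4 (0.944) and Tspan14 (0.939), and those most like Psen2 were Tspan9 (0.883), Aktip (0.879) and Timp1 (0.859). For Ncstn they were Slc44a1 (0.753), Adam9 (0.743) and Mid1 (0.721), for Aph1a probe 1 Lrrc8c (0.729), Tmem198 (0.729) and Nectin1 (0.671), and for Adam17 Plod3 (0.841), Plec (0.823) and Ccn2 (0.810). For Rbpj probe 1 they were Dppa3 (0.713), Supt20 (0.710) and Rita1 (0.649), and for Numb probe 1 Gcgr (0.722), Pebp1 (0.643) and Tmem98 (0.610). These are descriptions over samples that share arrays, treatments and normalization. Among the members themselves Psenen and Psen2 had r = 0.747, and Maml1 had r = -0.831 with Psenen and -0.725 with Psen2.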

How the data were processed

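RNA of 28 samples was hybridised to 30 Illumina 1-colour arrays. The main deposited table holds intensity values without normalization between arrays, per the file headers, made with BeadStudio per the submitters' processing notes (no version given). On each array 27.2% to 29.9% of the deposited intensities were below 0, so a background had been subtracted. The authors' processed intensities, with a floor of 50, were deposited separately. All 30 columns matched their own array best, and 99.96% of the values of the first array equalled the main table's signal or the floor. Its scale is linear and uncentred, its direction that of the signal, its median 50 on every array, and the sources used here do not give the method that brought arrays together.

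From the deposited intensities, signals were corrected by normexp (offset 0), turned into log2 and quantile-normalized with limma 3.58.1 in R 4.3.3, and the second arrays of Dox replicates 3 and 4 were averaged with the first. Probe names came from the platform annotation of GEO, symbols being updated by Entrez number for 20967 probes: 20983 had 1 symbol, 1 had several and 3627 had none. A probe was kept where it exceeded its array's median in at least 4 of 28 samples (12259 probes), and the probe of highest mean represented a gene (9809 genes). A signal counted as above background where it exceeded the 98th percentile of its array's negative signals mirrored around 0 (29.3 to 41.6, chosen after seeing the data). Where no sample of a group was above it, a ratio sets the bright group's mean against the higher of limit and signal. It is written "at least N-fold" only where every sample of the bright group was above background. Elsewhere it is no lower bound. The number of arrays limits the precision.

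lmFit and eBayes fitted 7 group means to all samples (21 residual degrees of freedom). Pooled contrasts average the separate ones. The samples are biological replicates by their labels, which name no separate cultures, so p-values measure the spread between these samples, which may be technical. Over genes, log2 differences between first arrays had an SD of 0.268 to 0.302 for replicates 1 and 2 of a group and 0.248 to 0.292 for 3 and 4, little above repeat arrays of 1 sample (0.212 and 0.232), and 0.492 to 0.554 for replicates 1 and 3. Deviations of same-numbered samples correlated at 0.704 to 0.836 in 84 pairs, so the number was taken to pair samples. The members and lists were chosen with earlier results of these data known. The genes named are the members, the called genes of the lists (at most 6 per list and comparison), the 3 most alike genes per member, and the check genes Nrarp, Hes5, Hey1, Hes1, Egln3 and Vegfa where a result turns on them. Markers of the cell types were named beside the oxygen result. The fit without a block was tested on simulated data with independent noise in each sample. That simulation held no replicate effect, so it cannot show how either fit behaves with samples paired as here. Alternatives were the replicate block (fixed or random), each set of replicates, leaving out each sample, background and scaling methods, filters, each probe, technical arrays, the authors' values, and averaged replicate sets, the last and the probe-wise repeats being added after seeing the data.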

Additional observations from a re-analysis of the deposited data

Results flagged for a closer look

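In 98 groups of 4 samples, 1 sample of a member's probe stood far from the other 3 in 8 groups by Dixon's criterion, where chance gives about 1 in 20. Maml1 in N2B27 replicate 1 was 11.07 against 10.67 to 10.72 in the other samples, and without it the separate change under 1% oxygen in N2B27 passed the threshold. Replicate 1 was the highest Maml1 sample in every group, and that fit kept the 1% O2 sample of this number (11.56). The pairing was thus broken, which by itself widens the difference. Psenen was low in replicate 1 of ESC (12.43 against 12.67 to 12.70) and of Dox (12.02 against 12.34 to 12.36). Adam17 was high in replicate 2 of 1% O2 (10.43 against 10.21 to 10.24) and of 1% O2+Dox (10.51 against 10.16 to 10.21). The other 3 were on probes near background: Aph1a probe 3 in N2B27 replicate 1 (6.09), Ncstn probe 2 in Dox replicate 2 (6.48) and Numb probe 2 in N2B27 replicate 3 (5.43).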

How the results depend on the processing

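The count of called members stayed at 0 for each Dox, DAPT and interaction comparison under each alternative run (the oxygen comparisons within Dox and DAPT are given next). With the replicate block, fixed or random (consensus correlation 0.648), it went from 0 to 1 for N2B27 against ESC, 2 for 1% O2 against N2B27, 3 for 1% O2+Dox against Dox and 3 for 1% O2+DAPT against DAPT. With each set of replicates averaged and the set as a block it went to 1, 1, 3 and 3. Pooled over treatments the count was 3 without the block, 0 within replicates 1 and 2 alone, 2 within 3 and 4 and 2 on the authors' processed values, where Psenen was lost, and 4 with each probe on its own (Aph1a added, by a probe that passed the filter through the 1% oxygen groups). For 1% O2 against N2B27 it was 1 within replicates 3 and 4 and 0 to 1 when 1 sample was left out. For 1% O2+Dox against Dox it was 1 with the second technical arrays and 0 to 1 when 1 sample was left out. The calls with 1 sample left out were Maml1 without N2B27 replicate 1 (limma adjusted p = 0.0474) and Psen2 without 1% O2+Dox replicate 2 (adjusted p = 0.0239). Both fits kept the sample of the same number in the group compared. With each probe on its own the count was 1 in each of these 2 comparisons. That call was the same Aph1a probe, kept through the 1% oxygen groups, and is no support. No called value among the 104 single values reversed. Counts of all genes rose with the block, from 190 to 1575 in N2B27 against ESC and from 1725 to 4072 for 1% oxygen pooled. Median scaling took the median of all genes from -0.02 to -0.07 in the pooled oxygen comparison, where Maml1 changed by 0.37 and Psenen by -0.33. In 1% O2+DAPT against DAPT it took that median from -0.02 to -0.12. Signals near background limit Rbpj, Numb and Aph1a probe 3, and nothing can be said of Adam10.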
